A study of Mus musculus with 7 samples.

Results

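Lysosomal hydrolases, lysosomal membrane proteins, the TFEB family of transcription factors and the subunits of the vacuolar proton pump (V-ATPase) were compared between Cish KO mice and wild-type controls (WT), in the macrophages of the lung alveoli. The set was a fixed list of 42 gene symbols without cathepsins, and all 42 were found among the 26143 rows of the count table that carry a symbol. Alveolar macrophages are the resident phagocytes of the airspaces. The cells were sorted from 4-month-old mice of the C57BL/6 strain, either WT (4 libraries, WT 1 to WT 4) or Cish KO (3 libraries, KO 1 to KO 3), with no treatment named for either group. Cish encodes a SOCS family protein that restrains cytokine receptor signalling. The labels do not say how the Cish allele was made, and reads of Cish were still present in KO, at 10.9 to 14.3 CPM (read counts relative to the library size, scaled with TMM factors) against 29.6 to 67.9 CPM in WT.

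The lysosome is the acid compartment in which macrophages break down what they have engulfed; alveolar macrophages use it above all for surfactant lipid. The V-ATPase keeps it acid: the V1 sector in the cytosol splits ATP and turns the V0 sector in the membrane, which carries protons inward. Soluble hydrolases then cut lipids, glycans and proteins at low pH, and inherited loss of many of them causes lysosomal storage disease. TFEB, TFE3 and MITF switch on many of these genes by binding CLEAR elements, which are built on the letters CACGTG.

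Total counts per library lay between 26676988 and 34347648, and the 42 genes took 2.51% to 2.79% of them. On the leading principal component, which held 42.6% of the variance, WT 4 stood at 7.27. That was between WT 1 to WT 3 (-39.4 to -24.1) and KO (18.3 to 43.9), and nearer to KO. Results below are therefore also given without single libraries where that changes a call. The alveolar macrophage markers (12 of 12 tested) summed to 21886 to 57154 CPM in WT and 46394 to 79831 CPM in KO, most of it Chil3, and 8 of the 12 had log2 fold changes above 0. DESeq2 called 1 of the 12 higher and 2 lower, against 2.68% and 3.02% of all genes. The higher one was Mrc1, at 478 to 549 CPM in WT and 595 to 654 CPM in KO (adjusted p 0.0370). The lower ones were Siglecf, at 521 to 587 and 372 to 455 CPM, and Fcgr1, at 53.8 to 62.8 and 38.4 to 47.2 CPM (adjusted p 0.00323 and 0.00318). Of those not called, Adgre1 was at 298 to 412 CPM in WT and 224 to 283 CPM in KO. Also not called, with higher KO means but overlapping ranges, were Fabp4, Car4 and Chil3 (log2 fold changes 1.27, 0.99 and 1.01). Fabp4 was at 99.8 to 249 CPM in WT and 196 to 528 CPM in KO, and Car4 at 461 to 1364 and 980 to 2596 CPM. Markers of erythroid cells and platelets summed to 15.5 to 350.3 CPM in WT and 294 to 859 CPM in KO, chiefly haemoglobin reads, and those of endothelium and stroma to 13.1 to 16.9 and 23.9 to 35.2 CPM. Markers of epithelium summed to 194 to 379 CPM in WT and 175 to 196 CPM in KO. Of these, Epcam was at 135 to 302 CPM in WT and 9.24 to 92.6 CPM in KO, whereas the other 6 had log2 fold changes above 0 (Sftpc at 12.9 to 47.2 and 19.2 to 69.5 CPM). Markers of neutrophils, with Ly6g at 0 in every library, summed to at most 32.6 CPM, those of interstitial macrophages and monocytes to at most 29.8 CPM, and those of T and NK cells to at most 9.08 CPM. Those of dendritic cells, B cells and eosinophils summed to at most 8.13, 3.44 and 0.688 CPM. The part of these levels in the values below was not tested. In bulk RNA, fewer cells of a type and less RNA per cell cannot be told apart.

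The question was whether loss of Cish moved the degradative machinery of these cells. All 42 genes were abundant enough to be tested, and none of them differed between genotypes by edgeR's quasi-likelihood test at an adjusted p below 0.05. Across all 12759 genes tested, 11 (0.0862%) passed. DESeq2 also called 0 of the 42, against 753 of 13198 genes (5.71%; 2.68% with higher and 3.02% with lower KO levels). At an unadjusted edgeR p below 0.05 there were 9 of the 42, 4 with higher and 5 with lower KO levels, against 2296 of 12759 genes (18%; 9.15% higher and 8.85% lower). Without KO 1 it was 1 of the 42 (2.38%), and 9.43% of all genes tested in that fit. CPM ranges of the genotypes did not overlap for 6 of the 42, 2 with higher and 4 with lower KO levels, against 16% of all genes tested (7.23% higher and 8.72% lower). Of the 42 log2 fold changes (KO against WT), 21 were above and 21 below 0, against 50.5% above and 49.5% below over all genes tested. Their median was 0.00, as was that of all genes tested. With library sizes alone as scaling, 16 of the 42 (38.1%) were above 0, and 42.3% of all genes tested, whose median moved to -0.05.

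The sizes of the differences were small, and the counts were deep enough to bound most of them. The log2 fold changes ran from -0.62 (Glb1) to 0.37 (Gla). For 34 of the 42 the estimated fold change was under 1.2 in either direction, which held for 67.7% of all genes tested. The unadjusted 95% interval of the fold change lay wholly inside 1.5-fold in either direction for 37 of the 42 (88.1%, against 57.8% of all genes tested). The exceptions were Tfeb, Atp6v1e1, Gla, Glb1 and Arsb. Only for Glb1 did the interval reach beyond 2-fold. The median standard error of the 42 was 0.09 on the log2 scale, against 0.14 for all genes tested. The lowest raw count of any of the 42 in any library was 459 (Smpd1 in KO 2).

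**Figure D1:**
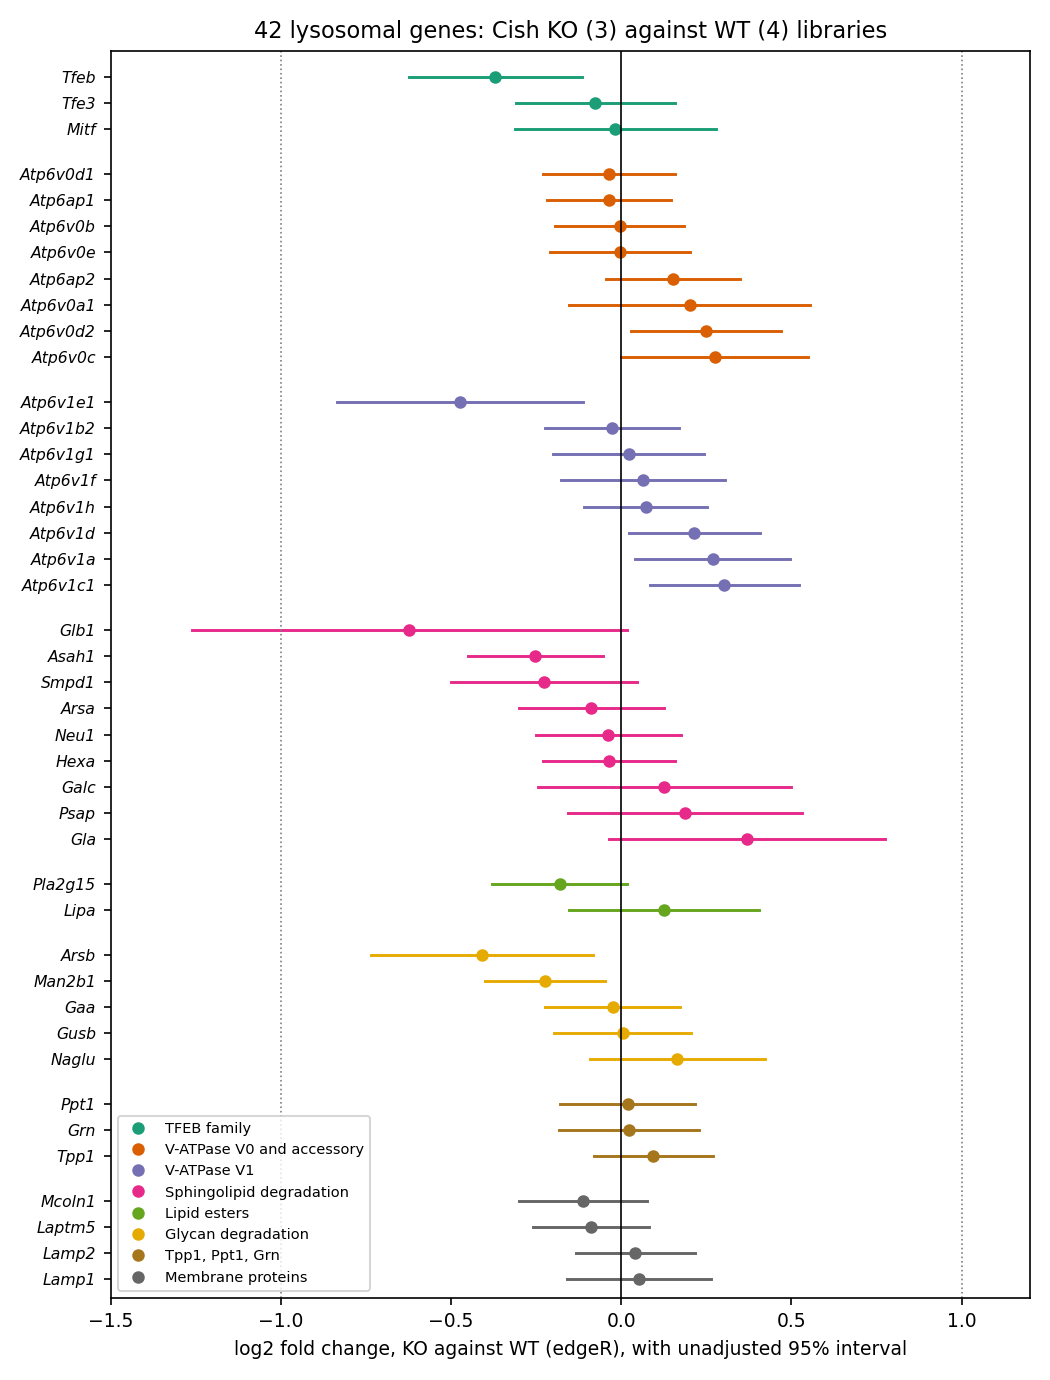
The horizontal axis gives the log2 fold change of KO (3 libraries) against WT (4 libraries) from edgeR, and each line is its unadjusted 95% interval; genes are grouped and coloured by role, and dotted lines mark a 2-fold difference. The points run from -0.62 (Glb1) to 0.37 (Gla), and only the line of Glb1 crosses a dotted line.

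The TFEB family controls transcription of many of the other genes, and all 3 of its log2 fold changes were below 0, with none past the test. Tfeb (chromosome 17, 47737037 to 47792416, mm10), which moves into the nucleus when the nutrient sensor mTORC1 is inactive, was at 104, 95.3, 114 and 87.4 CPM in WT (libraries 1 to 4) and 68.5, 82.4 and 81.9 CPM in KO (libraries 1 to 3). Every KO library was below every WT library, the nearest being KO 2 and WT 4. Its log2 fold change was -0.37 with an SE of 0.11 (adjusted p 0.149 in edgeR, 0.0529 in DESeq2), and the 95% interval of the fold ran from 0.65 to 0.92. It stayed below 0 in all 17 alternative fits, from -0.47 to -0.29, and passed in none of them.

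Its paralogs lay closer together between genotypes. Tfe3, which shares the DNA target of TFEB, was at 72.2, 72.2, 68.2 and 59.99 CPM in WT and 66.6, 70.8 and 56.6 CPM in KO (edgeR: log2 fold change -0.08, SE 0.10, adjusted p 0.739). Mitf, best known from pigment cells and osteoclasts, was at 19.6, 20.2, 24.7 and 21.7 CPM in WT and 17.7, 23.9 and 22.3 CPM in KO (edgeR: log2 fold change -0.02, SE 0.13, adjusted p 0.963). The ranges of both overlapped, and the 3 factors together made up 190.0 ± 16.1 CPM in the 4 WT libraries and 164 ± 12.5 CPM in the 3 KO libraries (mean ± SD). The difference between Tfeb and its paralogs was not tested.

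Promoters of the 42 genes were searched for the core of the CLEAR element, because these letters are where the TFEB family is known to bind. The RefSeq promoter table (GRCm38.p6, the build of mm10) spans 250 bases before to 50 after each annotated start, and 36 of the 42 genes matched by symbol. CACGTG, which reads the same on both strands, was present for 11 of the 36 (30.6%), against 8.09% of the 27025 symbols in the table. CACGTG with T before and A after it, a subset of these matches, was present for 5 of the 36 (13.9%) against 1.12%, and CACGTG with GT before and AC after it for 0 of the 36 against 0.37%. The 27025 symbols were not limited to genes expressed in these cells, and the differences in share were not tested. Gla, Mcoln1 and Atp6v0b hold 2 copies of CACGTG each, and Atp6v0b (log2 fold change -0.0049) is not shown. The stretches below precede the promoter-table start of Lamp1 (most copies), of Gla and Mcoln1, and of Atp6v1a, whose KO libraries all lay above WT. Each reads 5′ to 3′ on the strand of the gene, with every CACGTG in capitals.
Lamp1, chr8:13159088-13159160 (+): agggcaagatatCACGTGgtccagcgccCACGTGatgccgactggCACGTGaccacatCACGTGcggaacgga
Gla, chrX:134601182-134601244 (-): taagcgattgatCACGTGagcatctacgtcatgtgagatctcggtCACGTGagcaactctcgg
Mcoln1, chr8:3500436-3500491 (+): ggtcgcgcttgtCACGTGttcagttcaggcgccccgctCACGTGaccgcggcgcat
Atp6v1a, chr16:44139373-44139402 (-): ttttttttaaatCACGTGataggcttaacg
The Lamp1 stretch ends at the base before the annotated start, and its 4 copies lie within 73 bases. The Atp6v1a stretch lies inside the outermost bounds that the RefSeq gene list gives that gene. The 11 genes with the letters were Atp6v0b, Atp6v0d1, Atp6v0e, Atp6v1a, Gla, Glb1, Arsa, Gaa, Naglu, Lamp1 and Mcoln1. Their log2 fold changes ran from -0.62 to 0.37 with a median of -0.0049, 4 above and 7 below 0. For the 25 genes whose window lacks the letters the median was 0.0051, 13 above and 12 below 0. A match describes the sequence only, and no binding was measured.

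The V0 sector and the accessory proteins of the pump came next, with 4 of 8 log2 fold changes above 0 and a median of 0.07 (0.00 over all genes tested). Atp6v0d2 (chromosome 4, 19876838 to 19922566), the d subunit form typical of macrophages and osteoclasts, had the highest CPM of the pump genes: 2007, 1787, 1880 and 2198 CPM in WT and 2510, 2334 and 2170 CPM in KO. KO 1 and KO 2 were above all WT libraries and KO 3 was just below WT 4. The log2 fold change was 0.25 in edgeR, with SE 0.10 and adjusted p 0.228, and the interval of the fold ran from 1.02 to 1.38.

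Atp6v0c, which forms most of the proton-carrying ring, was at 491, 492, 518 and 614 CPM in WT and 746, 610 and 563 CPM in KO (edgeR: log2 fold change 0.27, SE 0.12, adjusted p 0.278). Its counts are uncertain, because the table lists the pseudogene Atp6v0c-ps2 separately with 16895 to 24513 reads per library, more than Atp6v0c itself. Summed, the pair averaged 1117 ± 121 CPM over the 4 WT libraries and 1355 ± 187 CPM over the 3 KO libraries (mean ± SD), and the log2 fold change was 0.28 in edgeR (SE 0.12, adjusted p 0.26). The pseudogene row alone gave nearly the same fold as the gene row, and neither the sum nor the gene passed. Multi-mapping settings were not given, so both rows may hold the same reads. The pseudogene row is therefore not a separate observation, and the sum may repeat reads.

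Atp6ap2, an accessory protein needed for assembly of the pump and known as the prorenin receptor, was at 603, 585, 654 and 646 CPM in WT and 702, 742 and 630 CPM in KO (edgeR: log2 fold change 0.15, adjusted p 0.391). KO 3 lay inside the WT range. The other 5 members of the sector, all with overlapping ranges, had log2 fold changes between -0.04 and 0.20. Their means in WT and KO were 122 and 141 CPM for Atp6v0a1, 604 and 602 for Atp6v0b, 399 and 389 for Atp6v0d1, 764 and 762 for Atp6v0e, and 683 and 666 for Atp6ap1.

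Per kilobase of exon, Atp6v0d2 was at 725 ± 65.6 CPM per kb in WT (SD, n = 4) and its alternative Atp6v0d1 at 223 ± 14.9. This scale compares levels of different genes only roughly, because the length counts the exons of every annotated transcript, expressed or not. The ratio of the d forms in a library was 3.32, 3.24, 3.07 and 3.38 in WT (libraries 1 to 4) and 4.11, 3.83 and 3.96 in KO (libraries 1 to 3). All KO ratios were above all WT ratios, with means of 3.25 (SD 0.133, n = 4) for WT and 3.97 (SD 0.142, n = 3) for KO. This ratio was chosen after the values were seen and carries no test. Among the a subunits, which anchor the pump, Tcirg1 (the a3 form of osteoclasts and phagocyte lysosomes, outside the 42) was at 52.8 ± 6.93 CPM per kb in WT, Atp6v0a1 at 18.7 ± 2.91 and Atp6v0a2 at 5.49 ± 0.359, and this order was the same in KO (58.8, 21.5 and 5.84).

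**Figure D2:**
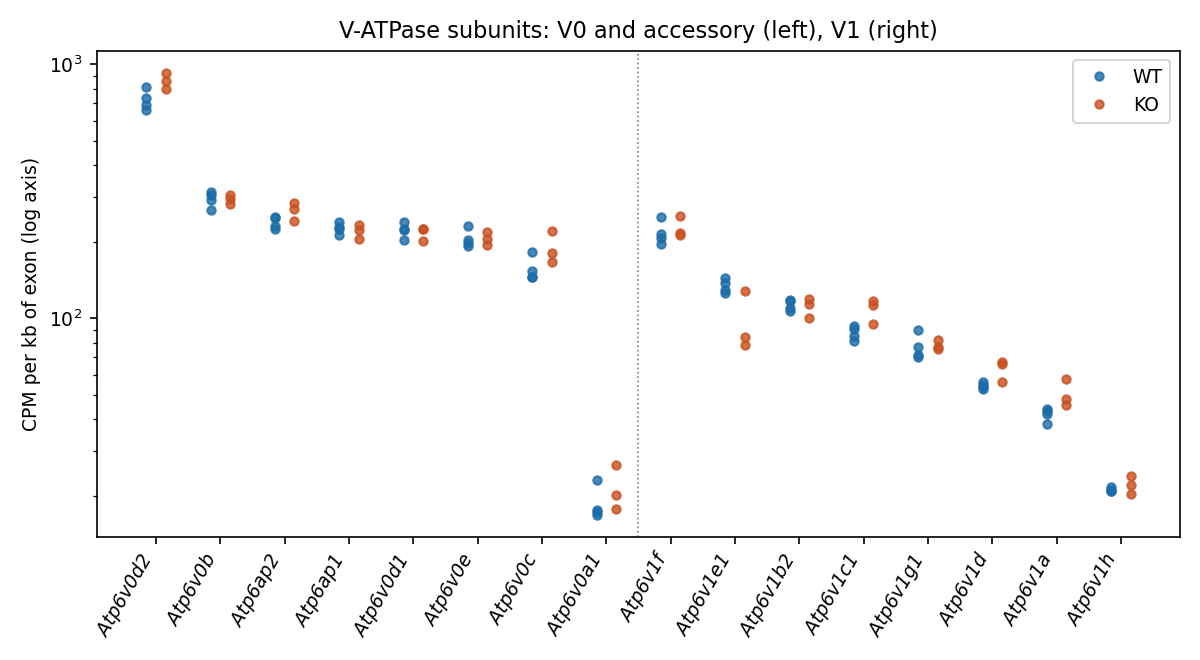
CPM per kilobase of exon (log axis) of the pump subunits in every WT (blue) and KO (orange) library, one point a library, with V0 and accessory genes left of the dotted line and V1 genes right of it. Atp6v0d2 stands above all other subunits in every library, and for Atp6v1e1 a pair of KO points lies well below WT.

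In the V1 sector, 6 of 8 log2 fold changes were above 0, with a median of 0.07, and 4 of 8 genes had an unadjusted p below 0.05 (3 higher and 1 lower in KO), against 18% of all genes tested. Atp6v1c1, the subunit that couples V1 to V0 when the pump assembles, was at 478, 457, 507 and 524 CPM in WT and 657, 631 and 531 CPM in KO. The groups did not overlap, though KO 3 stood only just above WT 4. Its log2 fold change was 0.30 with an SE of 0.10 (adjusted p 0.164 in edgeR, 0.0686 in DESeq2). Atp6v1a, the catalytic subunit that splits ATP, was at 232, 266, 262 and 252 CPM in WT and 349, 290 and 275 CPM in KO, again without overlap (edgeR: log2 fold change 0.27, SE 0.10, adjusted p 0.209).

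Atp6v1e1 (chromosome 6, 120795244 to 120822698), part of the stalks that hold the ATP-splitting head in place, had lower CPM in part of the KO libraries. It was at 517, 531, 567 and 591 CPM in WT and at 321, 347 and 524 CPM in KO 1 to KO 3. KO 1 and KO 2 were far below WT, while KO 3 lay inside the WT range. Over all 7 libraries its log2 fold change was -0.47 with an SE of 0.16 (adjusted p 0.180 in edgeR, 0.0535 in DESeq2). Without KO 3 it was -0.72 and passed edgeR (adjusted p 0.0188), in a fit that called 217 of all genes (1.67%). Over its 17 alternatives the adjusted p ran from 0.0178 to 0.556, and the gene passed in 2, both of which leave out KO 3. The testis form Atp6v1e2 had no reads in any library.

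Atp6v1b2, the B subunit beside the catalytic sites and the gene of the sector with the highest CPM in WT, was at 584, 619, 626 and 568 CPM in WT and 604, 630 and 530 CPM in KO (edgeR: log2 fold change -0.03, SE 0.09, adjusted p 0.904). The other 4 members had log2 fold changes of 0.02 to 0.22, all with overlapping ranges. Their means in WT and KO were 250 and 290 CPM for Atp6v1d, 231 and 241 for Atp6v1f, 87.5 and 88.9 for Atp6v1g1, and 206 and 216 for Atp6v1h. Summed over its 16 members, the pump stood at 8137, 7949, 8431 and 8923 CPM in WT and at 9436, 9048 and 8403 CPM in KO. KO 1 and KO 2 were above all WT libraries and KO 3 was below WT 3 and WT 4.

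**Figure D3:**
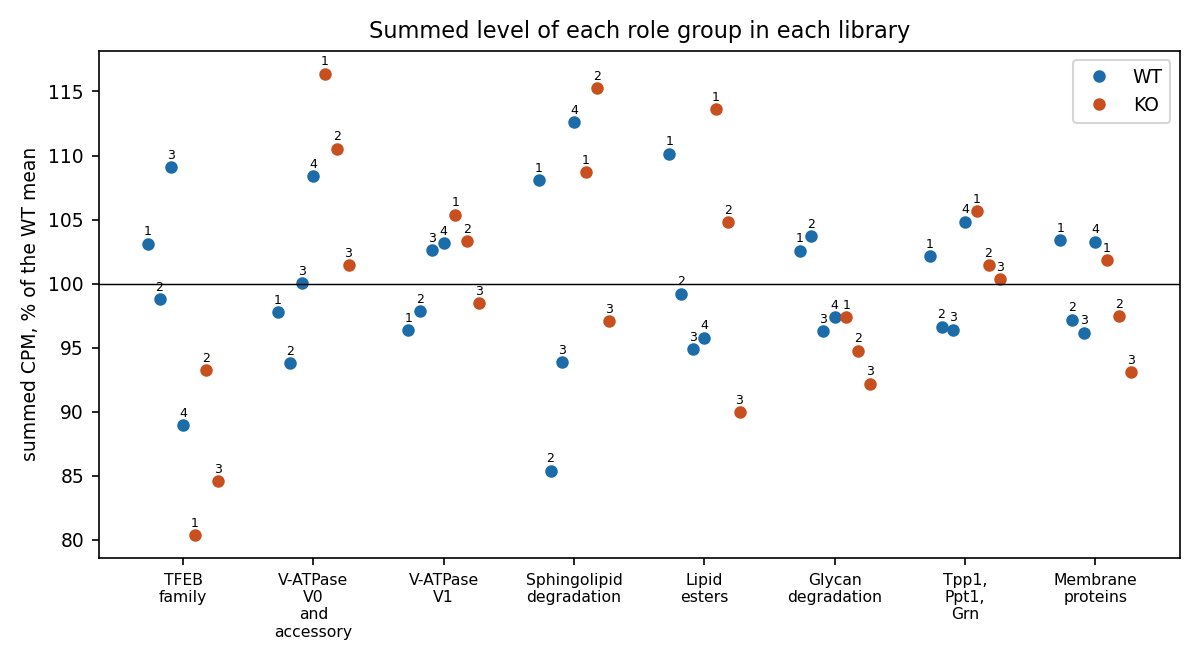
The summed CPM of each role group in each library, as a percentage of that group's WT mean (vertical axis, not starting at 0), with WT in blue, KO in orange and the replicate number above each point. The WT and KO ranges overlap in every group, and KO 1 is the highest point for V0 and accessory and for V1.

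Among the proteins of sphingolipid breakdown, 3 of 9 log2 fold changes were above 0, with a median of -0.04. Asah1, acid ceramidase, which frees sphingosine from ceramide, was at 974, 950, 979 and 870 CPM in WT and 738, 865 and 773 CPM in KO. The KO libraries were all below WT, with KO 2 next to WT 4. Its log2 fold change was -0.25 with an SE of 0.09 (adjusted p 0.187 in edgeR, 0.0919 in DESeq2).

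Glb1, lysosomal beta-galactosidase, split the WT libraries. It was at 28.5, 55.5, 58.7 and 26.1 CPM in WT 1 to WT 4 and at 26.0, 28.2 and 28.1 CPM in KO. WT 1 and WT 4 were level with KO, and WT 2 and WT 3 stood far above both. The log2 fold change of -0.62 in edgeR, with SE 0.28 and adjusted p 0.287, rested on WT 2 and WT 3. It was -0.46 without WT 2 and -0.42 without WT 3. Glb1 lies on chromosome 9 (114401078 to 114474379), 7.10 Mb from Cish. It shares 165 exon bases with Tmppe on the same strand, and Tmppe was at 14.0 to 18.4 CPM in WT and 14.3 to 21.4 CPM in KO, without the split.

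Gla, alpha-galactosidase A, which cuts the terminal galactose of globotriaosylceramide, was at 76.8, 76.9, 113 and 92.7 CPM in WT and 111, 146 and 91.7 CPM in KO. The ranges overlapped through WT 3 and KO 3, and the log2 fold change of 0.37 in edgeR, with SE 0.18 and adjusted p 0.320, was 0.17 without KO 2. Psap, the precursor of the saposins that lift lipids out of membranes for these enzymes, had the highest CPM of the 42 genes: 5144, 3607, 4023 and 5500 CPM in WT and 5359, 5596 and 4653 CPM in KO (edgeR: log2 fold change 0.19, SE 0.15, adjusted p 0.555). WT alone spanned more than the distance between the means of 4569 and 5203 CPM.

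The other 5 members had log2 fold changes between -0.23 and 0.13, none past the test, and every range overlapped. Hexa, the alpha chain of hexosaminidase, had means of 686 and 670 CPM in WT and KO, and the sialidase Neu1 of 235 and 228 CPM. Arylsulfatase A (Arsa) had means of 49.5 and 46.5 CPM, galactosylceramidase (Galc) of 23.7 and 25.8 CPM and acid sphingomyelinase (Smpd1) of 24.6 and 21.0 CPM.

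The enzymes of stored lipid esters and phospholipid did not pass either. Lipa, the acid lipase that frees cholesterol and fatty acids from engulfed lipid, was at 1200.5, 1030.3, 1032 and 962 CPM in WT and 1328, 1166 and 959.7 CPM in KO (edgeR: log2 fold change 0.12, SE 0.12, adjusted p 0.630). The KO libraries spanned the whole WT range. Pla2g15, the lysosomal phospholipase of alveolar macrophages whose loss is known to cause phospholipid build-up in them, was at 458, 464, 397 and 480 CPM in WT and 383, 412 and 395 CPM in KO (edgeR: log2 fold change -0.18, SE 0.09, adjusted p 0.318). WT 3 lay among the KO libraries.

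Among enzymes of glycan breakdown, 2 of 5 log2 fold changes were above 0, with a median of -0.03. Man2b1, lysosomal alpha-mannosidase, was at 506, 517, 453 and 493 CPM in WT and 413, 423 and 428 CPM in KO. The KO libraries lay close together, all below WT. Its log2 fold change was -0.22 with an SE of 0.08 (adjusted p 0.185 in edgeR, 0.0826 in DESeq2), and the interval of the fold ran from 0.76 to 0.97.

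Arsb, arylsulfatase B, which removes sulfate from dermatan and chondroitin sulfate, was at 24.3, 27.3, 26.6 and 18.1 CPM in WT and 17.0, 19.0 and 18.4 CPM in KO. WT 4 stood among the KO libraries and the other WT libraries above them. The log2 fold change was -0.41 in edgeR, with SE 0.14 and adjusted p 0.191, and without WT 4 it was -0.52 and passed edgeR (adjusted p 0.0460), in a fit that called 284 of all genes (2.25%). Over its 17 alternatives the adjusted p ran from 0.0460 to 0.559. Exons of a long noncoding RNA on the opposite strand cover 32.3% of the Arsb exon bases, and those of another cover 7.67%. The libraries do not mark strand. Opposite-strand transcripts also overlap exons of Arsa, Atp6v0b, Atp6v1e1, Atp6v1h, Galc, Grn, Hexa, Lamp1 and Ppt1, over 0.779% to 18.8% of their length.

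Naglu, an exo-enzyme of heparan sulfate breakdown, was at 142, 105, 115 and 128 CPM in WT and 150, 135 and 127 CPM in KO (edgeR: log2 fold change 0.16, SE 0.11, adjusted p 0.479). Acid alpha-glucosidase (Gaa) had means of 134 and 131 CPM in WT and KO, and beta-glucuronidase (Gusb) of 428 and 430 CPM. All of these ranges overlapped.

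Tpp1, Ppt1 and Grn, whose loss causes neuronal storage diseases, had overlapping ranges in WT and KO, though single KO libraries lay outside the WT range. Tpp1, a tripeptidyl peptidase, was at 431, 414, 410 and 441 CPM in WT and 483, 449 and 427 CPM in KO (edgeR: log2 fold change 0.09, adjusted p 0.559). Ppt1, which removes palmitate from proteins, was at 554, 610, 547 and 561 CPM in WT and 524, 577 and 625 CPM in KO (edgeR: log2 fold change 0.02, adjusted p 0.935). Grn, the precursor of the granulins, was at 1261, 1102, 1163 and 1303 CPM in WT and 1317, 1205 and 1155 CPM in KO (edgeR: log2 fold change 0.02, adjusted p 0.928). The 95% intervals of the fold were 0.95 to 1.21, 0.88 to 1.16 and 0.88 to 1.17.

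The membrane proteins had the smallest median standard error of the 8 role groups (0.08 on the log2 scale). Laptm5, a lysosomal membrane protein of blood cells, was at 3756, 3554, 3517 and 3680 CPM in WT and 3516, 3375 and 3335 CPM in KO, without overlap by the margin between WT 3 and KO 1. Its log2 fold change was only -0.09 (SE 0.08, edgeR adjusted p 0.568). Mcoln1, the calcium channel through which lysosomes can activate TFEB, was at 144, 124, 135 and 136 CPM in WT and 127, 131 and 116 CPM in KO (edgeR: log2 fold change -0.11, SE 0.08, adjusted p 0.509). Lamp1, the main glycoprotein of the lysosomal coat, was at 1688, 1532, 1550.0 and 1736 CPM in WT and 1824, 1724 and 1515 CPM in KO (edgeR: log2 fold change 0.05, SE 0.09, adjusted p 0.804). Lamp2, its relative with a role in autophagy, had means of 569 and 586 CPM and a fold interval of 0.91 to 1.16.

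**Figure D4:**
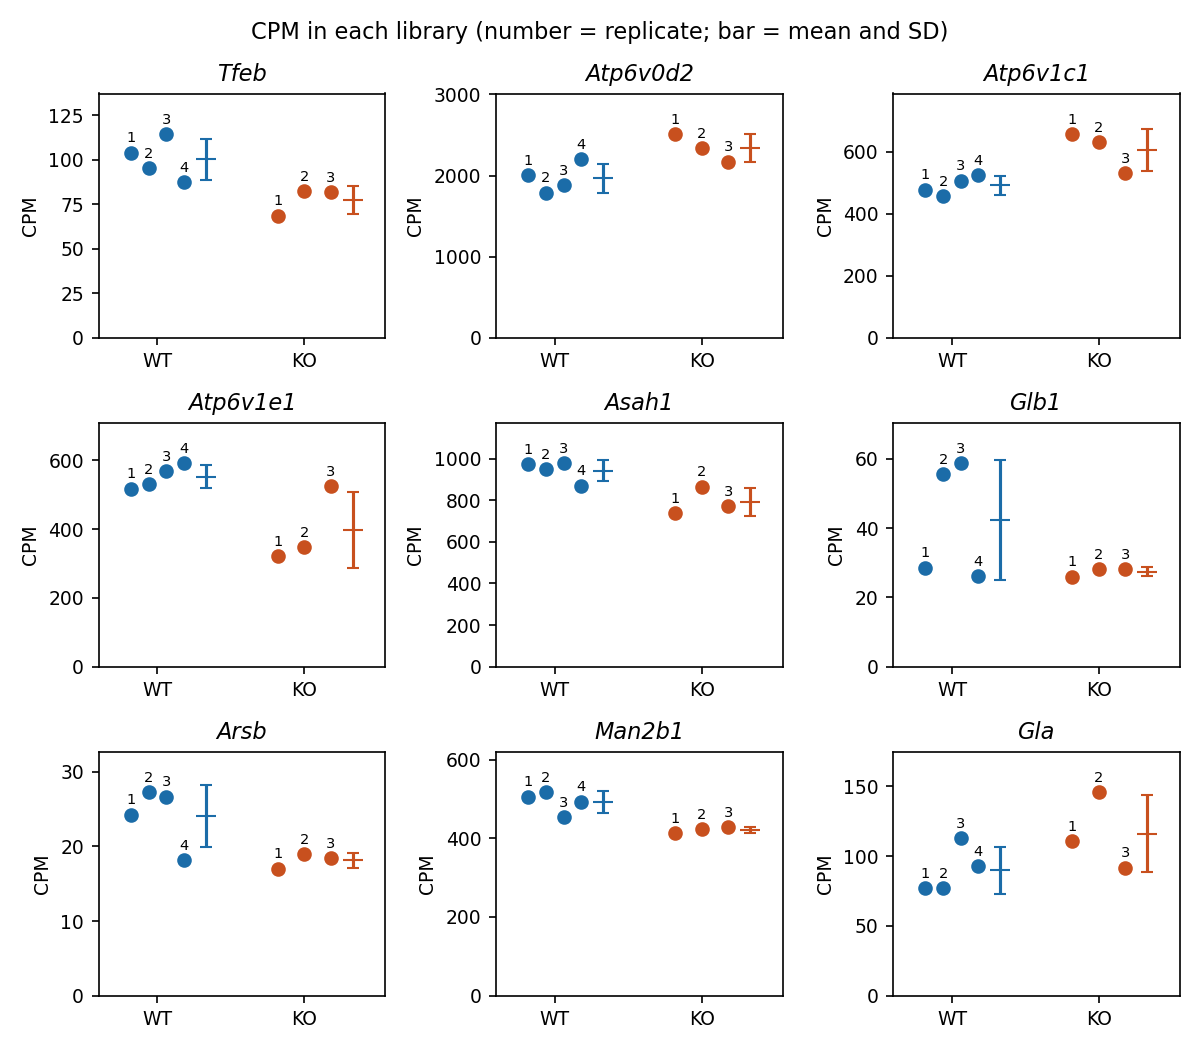
CPM of 9 members in each library (WT blue, KO orange, axes from 0), with the replicate number above each point and the mean ± SD beside the points. WT 1 and WT 4 sit with KO for Glb1, WT 4 sits with KO for Arsb, and KO 3 sits with WT for Atp6v1e1.

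Other lysosomal genes were taken from lists of known pathway members. EdgeR called 0 genes in every list, against 0.0862% of all genes tested. DESeq2 called 5.71% of all genes, the share to hold beside its counts below. Parentheses below give the log2 fold change and then the adjusted p in edgeR and in DESeq2, in that order. Of 25 further hydrolases tested, 13 had log2 fold changes above 0 and DESeq2 called 1 higher and 1 lower. The legumain gene Lgmn, an asparaginyl endopeptidase, was at 292 to 498 CPM in WT and 507 to 609 in KO (0.61, adjusted p 0.136 in edgeR, 0.0180 in DESeq2), and aspartylglucosaminidase (Aga) at 60.8 to 67.4 and 53.4 to 53.9 CPM (-0.27, 0.117 and 0.0349). Of 21 further membrane proteins, DESeq2 called Tpcn2, a cation channel (14.2 to 20.8 CPM in WT, 27.4 to 29.8 in KO, 0.67, adjusted p 0.0898 in edgeR, 0.00102 in DESeq2), and the proton channel gene Tmem175 (27.7 to 30.6 and 22.0 to 24.5 CPM, -0.33, 0.111 and 0.0295). Of 9 further pump genes, 7 had log2 fold changes above 0, and DESeq2 called Dmxl1, a factor of pump reassembly (10.4 to 14.2 and 15.3 to 18.4 CPM, 0.53, 0.111 and 0.0168).

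Among 19 genes of mTORC1 and its lysosomal docking, which set where TFEB resides, DESeq2 called 2 higher and 1 lower. Over all genes the shares were 2.68% higher and 3.02% lower. Fnip2, a partner of folliculin, was at 11.5 to 14.3 CPM in WT and 18.2 to 30.2 in KO (log2 fold change 0.79, adjusted p 0.0950 in edgeR, 0.00184 in DESeq2). Tsc1, an upstream brake of mTORC1, was at 5.34 to 6.74 and 8.72 to 10.4 CPM (0.63, 0.0950 and 0.00587). The Rag GTPase gene Rragb was at 2.10 to 3.75 and 0.429 to 1.44 CPM (-1.38, 0.144 and 0.0193). Folliculin itself (Flcn) had a log2 fold change of -0.01, and Tfec, the remaining relative of TFEB, of -0.03; both were chosen after their values were seen.

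Genes of hydrolase sorting (14 tested) and autophagy (16 tested) had 0 DESeq2 calls. At an unadjusted edgeR p below 0.05 there were 3 (21.4%) and 5 (31.25%), against 18% of all genes tested. The adaptor Gga1 was at 91.4 to 105 CPM in WT and 79.9 to 89.7 in KO (edgeR: log2 fold change -0.24, adjusted p 0.178), and the autophagosome protein gene Map1lc3b at 477 to 539 and 402 to 459 CPM (-0.26, 0.178). Of 14 cathepsin and cystatin genes DESeq2 called 3, against 5.71% of all genes. Ctsk was at 536 to 754 CPM in WT and 923 to 1479 in KO (0.84, adjusted p 0.0950 in edgeR, 0.000435 in DESeq2). The other called genes, Ctsf (-0.44) and Ctsh (-0.40), were below 0. Whether the 42 genes differ from these lists was not tested.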

How the data were processed

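RNA of sorted alveolar macrophages was made into Nextera XT libraries, per the labels' protocols; that kit does not mark strand. The authors deposited unnormalized read counts, one row per gene symbol, made with rsubread per the file name; the submitters' processing notes name mm10 and DESeq2. Annotation version and multi-mapping settings were not given in the sources used here. Of 27179 rows, 1036 without a symbol (0.376% to 0.424% of counts) were left out. The labels name no separate animals, batch or pairing, so the p-values rest on library-to-library spread alone, which may be technical.

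Counts were fitted in R 4.3.3 with edgeR 4.0.16 (filterByExpr, TMM factors, quasi-likelihood F test on genotype, Benjamini-Hochberg adjustment over 12759 genes, threshold 0.05). Errors are SD between libraries or SE of the log2 fold change. Intervals use the degrees of freedom of the fit. The common biological coefficient of variation was 0.187. On simulated counts with 200 changed genes, the fit called 71% of 2-fold and 89% of 4-fold changes, with 16 false calls. Smaller changes were not simulated. DESeq2 1.42.0 and voom with quality weights (limma 3.58.1) were alternatives, with the others listed in the closing section. Exon lengths came from GENCODE M21 (mm10), gene positions from RefSeq and promoters from RefSeq (GRCm38.p6).

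The members, lists and tests were chosen with earlier results of these data known. Values in every library are given for the TFEB family, members called by edgeR or DESeq2, the 3 members of each role with the smallest p, and the member of each role with the highest CPM (25 of 42). From other lists, up to 3 called genes or the one with the smallest p are named.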

Additional observations from a re-analysis of the deposited data

Results flagged for a closer look

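One WT library stood apart from the others for 1 of the 42 genes. Atp6v0a1, an a subunit of the pump, was at 151 CPM in WT 2 and at 110 to 115 CPM in the other WT libraries; the gap was 0.875 of the WT range, above Dixon's 95% limit for 4 samples. KO ranged from 116 to 174 CPM. About 1 in 20 such groups is marked by chance, and 42 were examined.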

How the results depend on the processing

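The count of all genes called moved strongly with the fit, and the count among the 42 hardly did. For all genes it was 11 with the main settings, RLE or upper-quartile factors, 12 with library sizes only, 753 with DESeq2, 397 with no filter, 21 with at least 5 CPM in at least 3 libraries and 46 with voom of limma with quality weights. It was 430 with the replicate block, where WT 4 alone carries number 4, and 7 to 284 when 1 library was left out. After the data were seen, 2 alternatives were added: leaving out WT 4 and KO 3 gave 590 calls, and a term for these last 2 columns of the deposited counts gave 19 calls. Among the 42, the count called was 0 in each of these fits, the replicate block included, except 1 without WT 4 (Arsb), 1 without KO 3 and 1 without both (Atp6v1e1, log2 fold change -0.69, adjusted p 0.0178), so leaving out 1 library gave 0 to 1. The count at an unadjusted p below 0.05 was 9, and 1 to 11 with 1 library left out, the lowest without KO 1. The median log2 fold change of the 42 was -0.050 with library sizes only (-0.048 over all genes tested), 0.047 without WT 4 and KO 3, and -0.032 to 0.041 with 1 library left out. Deviations of same-numbered WT and KO libraries correlated at -0.01, 0.14 and -0.02 across genes. Those of differently numbered libraries ran from -0.21 to 0.16. These values show no pairing by replicate number, but with so few libraries they cannot exclude it.

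Signs near 0 were not stable. Of the 42 genes, 18 changed sign in at least 1 of 17 alternatives, at an absolute value of at most 0.10. Leaving aside library sizes only, which lowered the median of all genes too, 17 did so in at least 1 of 16. Among the 25 given by library, these were Tfe3 (-0.15 to 0.011 with 1 library left out), Mitf (-0.11 to 0.10; 0.00073 with the 5 CPM filter), Atp6v1b2 (-0.083 to 0.043; 0.020 without WT 4 and KO 3), Ppt1 (-0.045 to 0.082; -0.033 with library sizes only, -0.049 without WT 4 and KO 3), Grn (-0.032 to 0.063; -0.027 with library sizes only) and Lamp1 (-0.0051 to 0.13). The cause was not tested.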
